A study of Mus musculus with 6 samples.

Results

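The myosin genes of the mouse left ventricle described here number 9, namely the heavy chains Myh6, Myh7, Myh7b and Myh10, the light chains Myl1, Myl2, Myl3 and Myl12a, and the light chain kinase Mylk3. They were taken by gene name from the deposited expression table, in which 9 of 24602 genes carried these names, and each had a mean of 1 FPKM or more over the 6 libraries and entered the test. FPKM are fragments per kilobase of transcript scaled to the mapped fragments of the library, so a level per transcript length. The study compared wild-type mice 5 weeks after transverse aortic coarctation (TAC), a narrowing of the aorta that loads the left ventricle with pressure, with sham-operated wild-type mice, 3 libraries each. The labels give no age, sex or strain, and they do not say that each library came from a separate mouse, so each p-value reflects the spread among these 6 libraries alone, which may be technical.

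Each library held between 64023153 and 69992502 estimated counts. All 12 ventricular cardiomyocyte markers were present, with a summed level of 30025 to 34593 FPKM in sham and 21922 to 27206 FPKM in TAC. Among them are the members Myh6, Myl2 and Myl3, so this sum is in part the members' own level. None of the 12 was called in the test described below. The mitochondrial chromosome took 16.9% ± 2.23 of the counts in sham and 26.3% ± 3.38 of those in TAC (SD, 3 libraries each). That share enters the denominator of every FPKM value, so levels are also given as CPM, counts scaled to the library total with TMM factors, which sets the bulk of genes level between libraries. Fold changes are log2 of TAC over sham from edgeR's quasi-likelihood test over 8795 genes, and a change was called at a Benjamini-Hochberg adjusted p under 0.05. TAC replicate 3 stood apart from the other TAC libraries: 615 genes were called with all libraries and 1705 without it, with Myl1 and Myl12a called both ways. With sham replicate 2 left out, 12 genes were called and no member. These are bulk samples, in which fewer cells of a type and less RNA per cell cannot be told apart.

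Myosin II is the motor of the thick filament. A pair of heavy chains forms the motor heads and the rod, and each head carries an essential and a regulatory light chain on its lever arm. The adult mouse ventricle uses mainly the fast alpha heavy chain, encoded by Myh6, and little of the slower beta chain, encoded by Myh7, which dominates before birth and in slow skeletal muscle and can rise in the stressed rodent heart. Thyroid hormone acts on both genes in opposite directions, raising Myh6 and lowering Myh7.

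Each of the 3 sarcomeric heavy chain genes of the heart carries a microRNA in an intron. The mature sequences are shown because they tie these genes into 1 family beyond their protein. They come from RefSeq (GRCm38.p6), run 5′ to 3′, and have the seed, bases 2 to 8, in capitals.
mmu-miR-208a-3p: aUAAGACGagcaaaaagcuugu
mmu-miR-208b-3p: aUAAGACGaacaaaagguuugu
mmu-miR-499-5p: uUAAGACUugcagugauguuu
The first lies in Myh6 (chr14:54949072-54949093, minus strand), between exons 29 and 30 of 39. The second lies in Myh7 (chr14:54975710-54975731, minus strand), between exons 31 and 32 of 41. The last lies in Myh7b (chr2:155622893-155622913, plus strand), between exons 19 and 20 of 42. Counted from 1 at the 5′ end, miR-208a-3p and miR-208b-3p differ by G10A, A16G and C18U and share the seed UAAGACG. The miR-499-5p seed is UAAGACU, and within the first 8 bases it differs from miR-208a-3p by A1U and G8U. Poly(A)-selected libraries with inserts of about 300 bases do not measure mature microRNAs. The deposited records for the hairpin genes held 9 or fewer counts per library for Mir208a and 14 to 38 for Mir208b. At the Mir208b record the counts were 38, 25 and 34 in sham and 32, 24 and 14 in TAC, lowest in the TAC library with the most Myh7.

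The promoters of the heavy chain pair and of Myl1 are shown because these are the members on which most of the values below turn. Each is the 250 bases before the RefSeq transcription start, on the gene's own strand, which is the minus strand for all 3, with the M-CAT core in capitals. M-CAT is the element bound by TEAD transcription factors in striated muscle genes, searched as CATTCC on both strands and so also read as GGAATG.
Myh6, chr14:54966608-54966857: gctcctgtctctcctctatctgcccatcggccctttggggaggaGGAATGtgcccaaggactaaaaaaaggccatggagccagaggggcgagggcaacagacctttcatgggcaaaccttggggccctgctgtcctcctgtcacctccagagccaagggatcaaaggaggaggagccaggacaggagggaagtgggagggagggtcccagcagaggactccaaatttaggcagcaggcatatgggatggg
Myh7, chr14:54994627-54994876: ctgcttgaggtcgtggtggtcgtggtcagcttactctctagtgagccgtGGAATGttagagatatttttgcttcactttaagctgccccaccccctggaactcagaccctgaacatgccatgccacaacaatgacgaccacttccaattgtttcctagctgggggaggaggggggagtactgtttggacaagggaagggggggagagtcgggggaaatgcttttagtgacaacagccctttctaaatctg
Myl1, chr1:66945057-66945306: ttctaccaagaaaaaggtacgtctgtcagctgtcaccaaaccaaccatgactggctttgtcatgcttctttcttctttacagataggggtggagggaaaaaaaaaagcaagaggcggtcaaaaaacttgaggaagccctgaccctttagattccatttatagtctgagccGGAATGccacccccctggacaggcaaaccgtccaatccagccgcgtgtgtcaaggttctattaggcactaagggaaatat
The element begins 206 bases before the start in Myh6, 201 in Myh7 and 80 in Myl1. RefSeq gives Myh7 another start, inside the gene, whose 250 bases (chr14:54994550-54994799) largely overlap those shown. The window at that start holds no match, as the element shown lies beyond its upstream edge. In windows of 250 bases before to 50 after the start, 7 of the 9 members held it in at least 1 window (Myh6, Myh7, Myh10, Myl1, Myl3, Myl12a and Mylk3), or 7 of their 12 windows, while 14.7% of all 32851 promoter windows did. The other motifs were also searched on both strands and anywhere in the window. The letters TATAAA, those of a TATA box, were in the windows of Myh6, Myl1 and Myl2 and in 13.6% of all windows. The 250 bases of Myh6 shown above hold no such match. Strand and distance to the start were not used, so these matches are not placed TATA boxes. The GATA motif AGATAA was in those of Myh7b, Myl2 and Mylk3 and in 11.2% of all. The nuclear receptor core AGGTCA was in those of Myh7b, Myl2 and Myl12a and in 16.3% of all. The CArG box was in that of Myl3 and in 1.63% of all, and the MEF2 motif, CTA and TAG with 4 bases of any kind between them, was in no member's window and in 3.69% of all. Matches of different motifs did not overlap in the members' windows. A match is a run of letters and not a measured binding site.

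Among the 9 members, Myl1 and Myl12a rose in TAC, none fell and 7 did not pass the test. Across all tested genes 4.71% were called higher and 2.29% lower. By DESeq2, Myh10, which passed the filter through its TAC values, was called higher as well. Over all 8795 tested genes DESeq2 called 1031 higher and 617 lower, more than edgeR. Still no member was lower in DESeq2, and no member fell at an unadjusted edgeR p under 0.05. The median log2 fold change of the members was 0.08, beside -0.01 over all genes. All 3 TAC libraries lay above all 3 sham libraries in CPM for Myh10, Myl1 and Myl12a, and below them for Myh6, while the groups overlapped for the other 5. Over all tested genes 17.7% had TAC above sham in this way and 17.1% TAC below. Together the 9 members accounted for 5.10%, 5.49% and 6.20% of the library total in sham, against 4.27%, 4.47% and 4.07% in TAC.

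**Figure D1:**
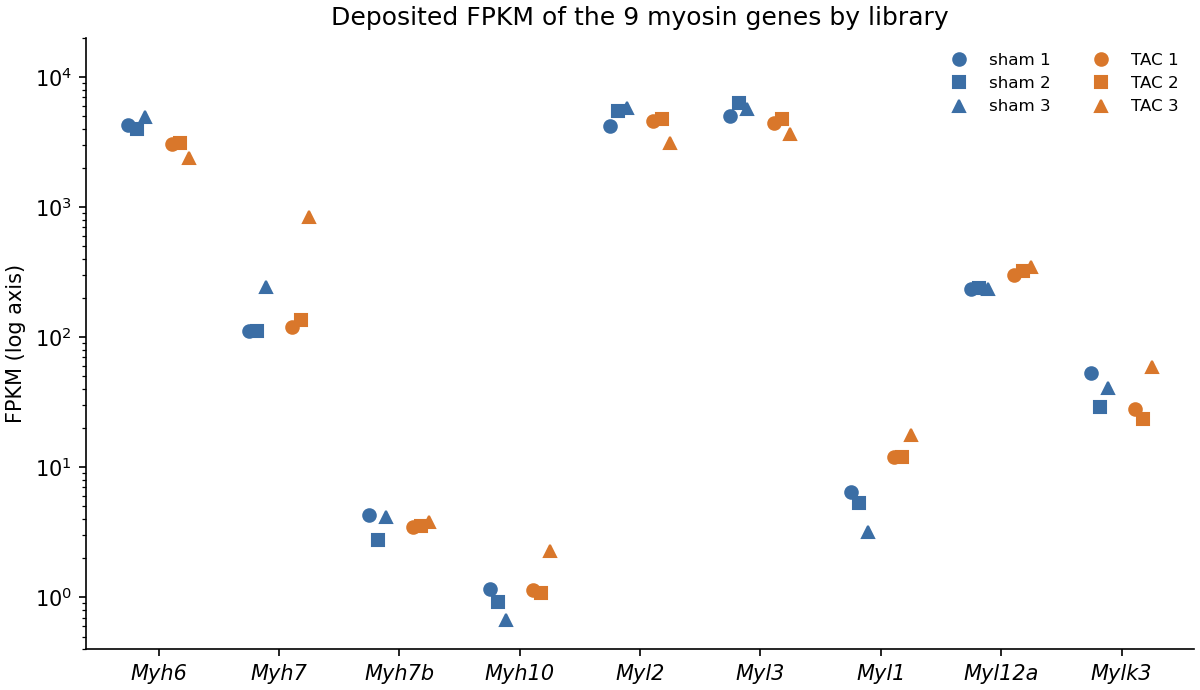
FPKM of each of the 9 members in each library, on a log axis, with sham in blue, TAC in orange and circle, square and triangle for replicates 1, 2 and 3. The 3 Myl1 values of TAC (11.98 to 17.7) lie above those of sham (3.16 to 6.43), and TAC replicate 3 stands alone for Myh7 at 840.4.

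**Figure D2:**
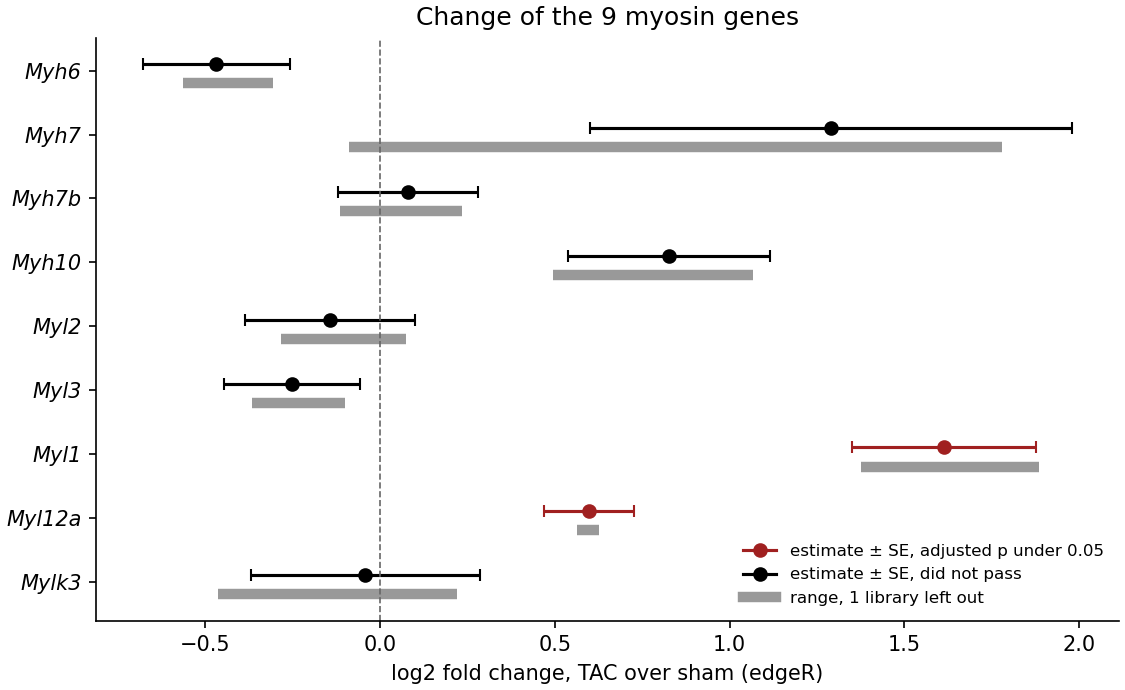
Log2 fold change of each member, TAC over sham, with its standard error. Red marks an adjusted p under 0.05 in edgeR's quasi-likelihood test, and the grey bar spans the values with each library left out in turn, which for Myh7 runs from -0.09 to 1.78.

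Myh6 encodes the alpha heavy chain, the main motor of the adult mouse heart (ENSMUSG00000040752, chr14:54941921-54966641, minus strand, GRCm38). It was at 4243, 3970 and 4951 FPKM in sham and at 3045, 3091 and 2392 FPKM in TAC. All TAC libraries were below all sham libraries, and TAC replicate 3 was the lowest. Myh6 alone accounted for 2.81% to 3.49% of the library total in sham, against 1.71% to 2.20% in TAC. After TMM scaling it was at 29928 ± 3922 CPM in sham (SD, n = 3) and 21636 ± 4433 CPM in TAC (SD, n = 3), a log2 fold change of -0.47 ± 0.21 (SE). The adjusted p in edgeR's quasi-likelihood test was 0.189, and it ranged from 0.0694 to 0.573 over the 15 alternatives, so the order of the groups did not reach a call in any of them. With trends over GC content and length removed the log2 fold change of Myh6 was -0.24 (adjusted p = 0.573 in edgeR).

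Myh7 encodes the beta heavy chain and lies next to Myh6 on the same strand (ENSMUSG00000053093, chr14:54970684-54994626). It was at 111.6, 112.1 and 243.3 FPKM in sham and at 119.4, 134.4 and 840.4 FPKM in TAC. TAC replicate 3 was far above the rest, while TAC replicates 1 and 2 lay below sham replicate 3. Relative to the mean CPM of sham, Myh7 stood at 0.885-fold, 0.997-fold and 5.46-fold in the 3 TAC libraries. The highest TAC library exceeded the lowest by 6.17-fold, and the highest sham library exceeded the lowest by 2.26-fold. The mean went from 1362 ± 678 to 3333 ± 3553 CPM (SD, n = 3 each), a log2 fold change of 1.29 ± 0.69 with an adjusted p of 0.262 in edgeR's quasi-likelihood test, and the groups overlapped. With TAC replicate 3 left out, its log2 fold change was -0.09 (adjusted p = 0.871, edgeR), so the direction of the mean came from that library.

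The share of the beta chain in the alpha and beta pair is the usual measure of the heavy chain switch. Myh7 made up 2.56%, 2.75% and 4.68% of the summed FPKM of Myh6 and Myh7 in sham, and 3.77%, 4.17% and 26.0% in TAC. Again 1 TAC library stood apart, and the other pair lay within the sham range. The means were 3.33% ± 1.18 and 11.3% ± 12.7 (SD, n = 3 each), and their difference of 7.98 percentage points gave p = 0.3 in an exact 2-sided permutation test, or 0.375 adjusted over the 5 ratios and sums tested. The smallest p that 3 against 3 libraries allow is 0.1. Without TAC replicate 3 the difference was 0.638 percentage points. In the same library, the summed FPKM of 8 fibroblast markers was 205, beside 77.2 and 69.4 in the other TAC libraries. In sham the sum was 75.8, 63.7 and 53.7, lowest in sham replicate 3, the sham library with the most Myh7. The part of fibroblasts in the Myh7 value was not tested.

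The Myh7 locus also holds Mhrt, a long noncoding RNA on the opposite strand (ENSMUSG00000097652, chr14:54968678-54974349, plus strand), singled out after its values were seen. Mhrt was at 59.0, 58.7 and 28.4 FPKM in sham and at 27.5, 43.7 and 8.92 FPKM in TAC. The lowest level in each group was in the library with the most Myh7, and the groups overlapped. The ratio of Myh7 to Mhrt FPKM was 1.89, 1.91 and 8.56 in sham and 4.35, 3.07 and 94.2 in TAC. The log2 fold change of Mhrt was -0.67 ± 0.54 with an adjusted p of 0.455 in edgeR's quasi-likelihood test. In the exon models of GENCODE M21, 39.9% of the exonic bases of Mhrt overlap Myh7, and 13.3% of those of Myh7 overlap records on the other strand. The sources used here do not give the strand setting of the counting, so reads in these stretches may have been assigned to either gene.

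**Figure D3:**
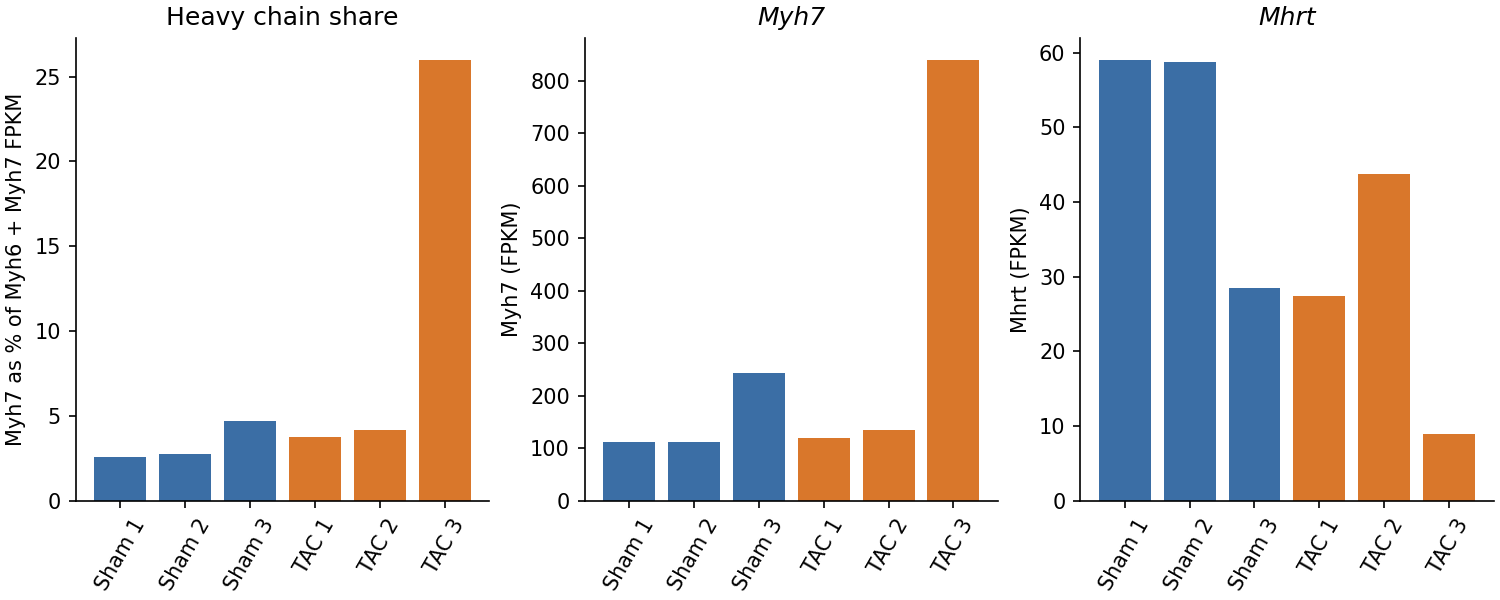
Bars give, for each library, the Myh7 share of the summed FPKM of Myh6 and Myh7 in percent, Myh7 in FPKM and Mhrt in FPKM, with sham in blue and TAC in orange. TAC replicate 3 holds the highest share (26.0%), the highest Myh7 (840.4) and the lowest Mhrt (8.92), while every other library has a share of 4.68% or less.

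Myh6 and Myh7 are near copies of each other. Their coding sequences match at 91.7% of 5802 aligned bases, and 23.8% of the 50-base windows and 12.02% of the 100-base windows of the Myh6 coding sequence also occur in Myh7 transcripts. Division of reads between the pair is therefore uncertain in part of their length. Myh7b matches Myh6 at 72.3% and Myh7 at 72.2% and shares no such window with either.

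Myh7b encodes the third sarcomeric heavy chain of the heart, an ancient slow-type myosin whose gene hosts the microRNA shown above (ENSMUSG00000074652, chr2:155611212-155634307, plus strand). It was at 4.34, 2.76 and 4.14 FPKM in sham and at 3.46, 3.51 and 3.80 FPKM in TAC, so the TAC values lay inside the sham range. The log2 fold change was 0.08 ± 0.20 with an adjusted p of 0.834 in edgeR's quasi-likelihood test. Its share of the summed FPKM of the 3 cardiac heavy chains was 0.0995%, 0.0675% and 0.0797% in sham and 0.109%, 0.109% and 0.117% in TAC. Every TAC share was above every sham share, with overlapping Myh7b levels and a lower sum of the 3 chains in TAC, and the exact 2-sided permutation test gave its smallest p of 0.1, or 0.167 adjusted over 5.

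The sum of the 3 cardiac heavy chains was 4359, 4084 and 5198 FPKM in sham and 3167, 3229 and 3236 FPKM in TAC. This measure was chosen after the values were seen. The TAC libraries were all below the sham libraries, with means of 4547 ± 580.2 and 3211 ± 37.9 FPKM (SD, n = 3 each). The difference of -1336 FPKM gave the smallest p the design allows, 0.1 in an exact 2-sided permutation test and 0.167 adjusted over 5. Divided by the TMM factors, the sums were 4278, 3773 and 5018 in sham and 3487, 3530.1 and 3073 in TAC, a difference of means of -993, with the groups still apart and TAC replicate 3 the lowest.

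Myh10 encodes the heavy chain of nonmuscle myosin IIB, which works in cell division, cell shape and migration rather than in the sarcomere (ENSMUSG00000020900, chr11:68691559-68816632, plus strand). It was at 1.15, 0.917 and 0.669 FPKM in sham and at 1.15, 1.08 and 2.25 FPKM in TAC. Its mean over all libraries was 1.20 FPKM, just over the filter of 1. The sham mean was 0.912 and the TAC mean 1.49, so it entered the test through the TAC libraries. Its test results are therefore a description only. The groups overlapped in FPKM, while in CPM the sham libraries, at 12.5, 9.45 and 7.17, all lay below the TAC libraries, at 14.1, 13.3 and 24.2. The log2 fold change was 0.83 ± 0.29 with an adjusted p of 0.108 in edgeR's quasi-likelihood test. It passed in DESeq2 (adjusted p = 0.0374) and in edgeR with trends over GC content and length removed (0.0427), and its adjusted p over the alternatives ran from 0.0374 to 0.30. Myh10 was highest in the library with the highest fibroblast marker sum, and the part of those cells was not tested.

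Myl2 encodes the ventricular regulatory light chain (ENSMUSG00000013936, chr5:122100951-122113472, plus strand), and Myl3 the essential light chain of the ventricle (ENSMUSG00000059741, chr9:110741861-110769798, plus strand). Myl2 was at 4221, 5445 and 5751 FPKM in sham and at 4579, 4756 and 3087 FPKM in TAC. The groups overlapped, and the lowest value was that of TAC replicate 3. Its log2 fold change was -0.14 ± 0.24 with an adjusted p of 0.749 in edgeR's quasi-likelihood test, and 0.07 without that library.

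Myl3 was at 5045, 6326 and 5694 FPKM in sham and at 4407, 4752 and 3660 FPKM in TAC. The groups were apart in FPKM, with TAC below, and overlapped in CPM, at 11756 ± 1037 in sham (SD, n = 3) and 9877 ± 1947 in TAC (SD, n = 3). The log2 fold change was -0.25 ± 0.19 with an adjusted p of 0.440 in edgeR's quasi-likelihood test.

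The ratio of Myl3 to Myl2 FPKM was 1.20, 1.16 and 0.990 in sham and 0.962, 0.999 and 1.19 in TAC. Both groups spanned the same range, and the difference of means of -0.0666 gave p = 0.5 in an exact 2-sided permutation test (0.5 adjusted over 5). Myl2 and Myl3 together amounted to 2.13, 2.88 and 2.20 FPKM per FPKM of the 3 cardiac heavy chains in sham and 2.84, 2.94 and 2.08 in TAC, with no separation of the groups.

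Myl1 encodes the fast skeletal essential light chain and is the counterpart of Myl3 in fast fibres, also used by the embryonic heart (ENSMUSG00000061816, chr1:66924295-66945404, minus strand). It was at 6.43, 5.34 and 3.16 FPKM in sham and at 11.98, 12.1 and 17.7 FPKM in TAC. Every TAC library was above every sham library. It rose from 10.5 ± 3.55 to 32.1 ± 4.83 CPM (SD, n = 3 each), 3.06-fold, with a log2 fold change of 1.61 ± 0.26 and an adjusted p of 0.0241 in edgeR's quasi-likelihood test. Leaving out 1 library ended the call for sham replicate 2 (adjusted p = 0.118), sham replicate 3 (0.0547) and TAC replicate 1 (0.0610), and Myl1 passed in the other 12 alternatives, with adjusted p-values down to 5.5e-07.

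Against the ventricular essential light chain, Myl1 remained a trace. Its share of the summed FPKM of Myl1 and Myl3 was 0.127%, 0.0843% and 0.0555% in sham and 0.271%, 0.254% and 0.481% in TAC, a measure chosen after the values were seen. Every TAC share was above every sham share, and the exact 2-sided permutation test gave its smallest p of 0.1, or 0.167 adjusted over 5. The coding sequences of Myl1 and Myl3 match at 71.6% and share no 50-base window.

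Fast skeletal muscle markers were read beside Myl1. Of 11 listed, 9 were in the table and only Mybpc2 was above the filter. Their summed level was 7.83 to 9.61 FPKM in sham and 11.7 to 25.1 FPKM in TAC, most of it Mybpc2. The fast regulatory light chain Mylpf was at 0.294, 0.293 and 0.450 FPKM in sham and at 0.666, 0.921 and 0.343 FPKM in TAC, with overlapping groups. Troponin T3, Tnnt3, was at 0.053, 0 and 0 FPKM in sham and at 0.310, 0.412 and 0.820 FPKM in TAC. Troponin I2, Tnni2, went the other way, with 0.883, 1.16 and 0.737 FPKM in sham and 0.546, 0.324 and 0.540 FPKM in TAC, all TAC libraries below all sham libraries. The fast calcium pump Atp2a1 was at 0.0558, 0.425 and 0.375 FPKM in sham and at 0.148, 0.0918 and 0.118 FPKM in TAC, with overlapping groups. The fast heavy chain Myh1 had 4 counts in 1 sham library and 0 in the other 5. The part of skeletal muscle RNA in the Myl1 values was not tested.

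Myl12a encodes a regulatory light chain of nonmuscle and smooth muscle myosin, the partner of heavy chains such as Myh9 and Myh10 (ENSMUSG00000024048, chr17:70993656-71002554, minus strand). It was at 232.9, 240.7 and 234.6 FPKM in sham and at 302.4, 322.8 and 343.0 FPKM in TAC. The sham libraries were close together and all TAC libraries lay above them. It rose from 803 ± 7.10 to 1216 ± 48.9 CPM (SD, n = 3 each), 1.51-fold, with a log2 fold change of 0.60 ± 0.13 and an adjusted p of 0.0358 in edgeR's quasi-likelihood test. The call was lost in 10 of 16 alternatives, with an adjusted p of up to 0.155, among them scaling by total counts (0.0813), limma on log2(FPKM + 1) (0.0738) and 5 of the 6 fits that left out a library: without sham replicates 1, 2 and 3 it was 0.0719, 0.155 and 0.106, and without TAC replicates 1 and 2 it was 0.127 and 0.0951.

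Myl12a has a neighbour and near copy, Myl12b, with 96.5% identical coding bases. Of the 50-base windows of its coding sequence 89.3% also occur in Myl12b transcripts, so its own level is uncertain. In the exon models of GENCODE M21, 13.8% of its exonic bases overlap Myl12b on the same strand. In the deposited coordinates the genes do not touch, as Myl12b ends at chr17:70990890, before Myl12a begins. With the counts of both genes summed, an alternative chosen after the values were seen, the log2 fold change was 0.58 with an adjusted p of 0.0389 in edgeR's quasi-likelihood test.

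**Figure D4:**
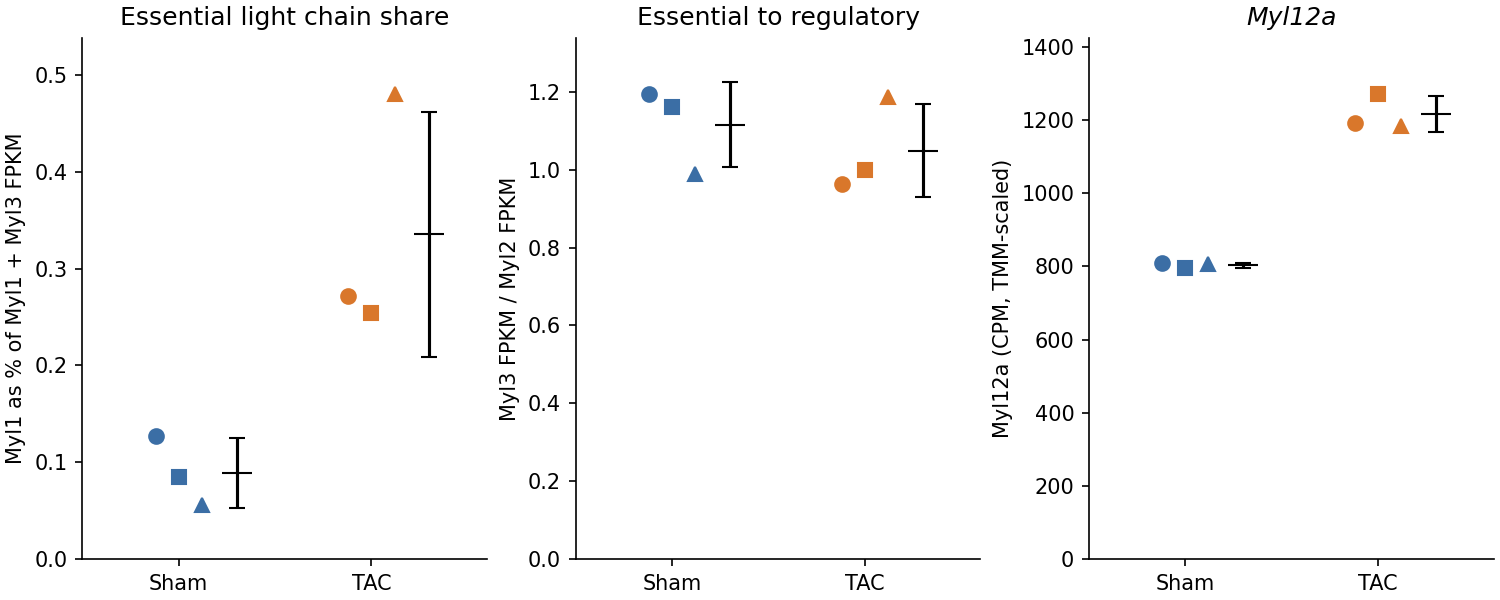
Points give, for each library, the Myl1 share of the summed FPKM of Myl1 and Myl3 in percent, the ratio of Myl3 to Myl2 FPKM, and Myl12a in TMM-scaled CPM, with circle, square and triangle for replicates 1, 2 and 3 and the mean ± SD (n = 3) beside them. The groups are apart, with TAC higher, in the Myl1 share and in Myl12a, and they overlap in the Myl3 to Myl2 ratio.

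Mylk3 encodes cardiac myosin light chain kinase, which phosphorylates the regulatory light chain encoded by Myl2 (ENSMUSG00000031698, chr8:85324303-85386345, minus strand). It was at 52.6, 29.1 and 40.4 FPKM in sham and at 27.9, 23.4 and 59.0 FPKM in TAC. The TAC libraries held both the highest and the lowest value, and the highest was replicate 3. The log2 fold change was -0.04 ± 0.33 with an adjusted p of 0.950 in edgeR's quasi-likelihood test.

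Ordered by mean FPKM in sham, the members ran Myl3 (5688 ± 640.4), Myl2 (5139 ± 810), Myh6 (4388 ± 506), Myl12a (236 ± 4.10), Myh7 (155.7 ± 75.9), Mylk3 (40.7 ± 11.7), Myl1 (4.98 ± 1.66), Myh7b (3.75 ± 0.861) and Myh10 (0.912 ± 0.240; SD, n = 3). The sham libraries overlapped between Myl3 and Myl2, Myl2 and Myh6, Myl12a and Myh7, and Myl1 and Myh7b, and the other neighbours were apart. In TAC, Myh7 (364.7 ± 412) stood above Myl12a (322.7 ± 20.3) by its mean, through TAC replicate 3 only.

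Other genes of the myosin system came from 6 lists with 79 genes, of which 74 were in the table and 49 were tested. Of these 49, 3 rose, 1 fell and 45 did not pass, with a median log2 fold change of -0.05. Across all tested genes 4.71% were called higher and 2.29% lower, so these counts are near the share over all genes. The same shares stand beside the edgeR counts of each list below. The DESeq2 counts stand beside 1031 genes called higher and 617 called lower by DESeq2 over all 8795. Counts at an unadjusted p under 0.05 are given without a share over all genes and are a description only. Among other heavy chains 3 of 10 were tested and none was called in edgeR or DESeq2, with 1 higher at an unadjusted edgeR p under 0.05. The nonmuscle heavy chain Myh9 was at 13.7, 9.98 and 8.67 FPKM in sham and at 10.1, 8.74 and 11.0 FPKM in TAC, and Myh14 at 20.8, 18.1 and 27.7 against 14.7, 16.3 and 28.2 FPKM. Both had overlapping groups, with an adjusted p of 0.946 for Myh9 and 0.914 for Myh14 in edgeR.

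None of 6 tested other light chains was called in edgeR or DESeq2 or had an unadjusted edgeR p under 0.05. The atrial regulatory light chain Myl7 was at 11.5, 99.3 and 69.0 FPKM in sham and at 60.7, 2.61 and 13.3 FPKM in TAC, a wide spread within both groups (log2 fold change -1.04 ± 1.02, adjusted p = 0.553 in edgeR). Of 8 atrial markers, Myl7 among them, Myl4 and Sln ordered the 6 libraries as Myl7 did. Bmp10 and Stard10 were also highest in sham replicate 2, Nppa and Dkk3 in TAC replicate 3 and Nr2f2 in TAC replicate 2. Nppa was the only atrial marker called, higher in TAC (log2 fold change 1.54, adjusted p = 0.0352 in edgeR). All TAC libraries lay above all sham libraries for Nppa. The part of atrial RNA was not tested. The smooth muscle light chain Myl9 was at 31.4, 46.3 and 34.7 FPKM in sham and at 34.5, 33.0 and 21.9 FPKM in TAC (adjusted p = 0.716 in edgeR).

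Of 8 tested light chain kinase and phosphatase genes 1 rose and none fell, with 1 lower in DESeq2 and 1 lower at an unadjusted edgeR p under 0.05. Ppp1cb, the catalytic subunit of myosin phosphatase, was at 2.55, 1.81 and 2.45 FPKM in sham and at 3.54, 3.57 and 4.39 FPKM in TAC. It rose from 25.1 ± 5.05 to 46.7 ± 2.18 CPM (SD, n = 3 each; log2 fold change 0.89 ± 0.17, adjusted p = 0.0300 in edgeR). The call was lost in 10 of 14 alternatives, among them those without sham replicate 2 (adjusted p = 0.118), sham replicate 3 (0.0844), TAC replicate 1 (0.0913) or TAC replicate 2 (0.0592). With trends over GC content and length removed the log2 fold change was 0.33 (adjusted p = 0.151).

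Of 14 tested genes for myosin binding, folding and the M-band 2 rose and none fell, with 1 lower in DESeq2 and 4 lower at an unadjusted edgeR p under 0.05. Hsp90aa1, an HSP90 chaperone that folds the myosin head together with UNC45, was at 2.54, 1.36 and 2.12 FPKM in sham and at 8.67, 12.7 and 5.50 FPKM in TAC. It rose from 8.05 ± 2.57 to 40.3 ± 18.3 CPM (SD, n = 3 each; log2 fold change 2.32 ± 0.38, adjusted p = 0.0241 in edgeR). That call was lost without sham replicate 2 (0.116), sham replicate 3 (0.0747) or TAC replicate 1 (0.0610). Mybpc2, fast skeletal myosin-binding protein C, was at 7.78, 5.73 and 6.02 FPKM in sham and at 11.3, 9.53 and 23.2 FPKM in TAC. It rose from 23.9 ± 4.57 to 58.1 ± 24.4 CPM (SD, n = 3 each; log2 fold change 1.28 ± 0.29, adjusted p = 0.0387 in edgeR), a call lost in 10 of 15 alternatives. Without sham replicates 1, 2 and 3 the adjusted p was 0.0555, 0.168 and 0.119, and without TAC replicate 1 it was 0.0870.

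None of 11 tested transcriptional regulators was called in edgeR, while DESeq2 called 1 higher and 2 lower, and 1 was higher and 3 lower at an unadjusted edgeR p under 0.05. Gata4, a cardiac zinc finger factor, was at 41.1, 57.3 and 40.8 FPKM in sham and at 25.6, 27.9 and 37.2 FPKM in TAC (log2 fold change -0.48 ± 0.17, adjusted p = 0.110 in edgeR). All TAC libraries were below all sham libraries, and without TAC replicate 3 it passed (adjusted p = 0.0352). The homeobox factor Nkx2-5 was at 45.8, 72.5 and 66.3 FPKM in sham and at 44.4, 47.7 and 39.9 FPKM in TAC (adjusted p = 0.315 in edgeR). Vgll2, a skeletal muscle partner of TEAD factors, was under the filter and is named because of its values. It had 0 counts in all 3 sham libraries and 36, 88 and 26 in TAC, with an adjusted p of 0.0327 in edgeR without the filter. Vgll2 was picked for this pattern and entered that fit through TAC alone, so the p-value is a description only. None of the other regulators under the filter passed without it.

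Of 7 tested genes of the thyroid hormone axis 1 fell and none rose. In DESeq2 1 was lower, at an unadjusted edgeR p under 0.05 3 were lower, and none was higher by either. Their median log2 fold change was -0.35, beside -0.01 over all genes. In 4 of the 7 all TAC libraries lay below all sham libraries in CPM. The same held for 17.1% of all tested genes and for 4 of the 11 tested regulators. For Rxra, 1 of the 4, the nearest values were 104.2 CPM in TAC and 104.3 CPM in sham. Under the filter, Dio2 went the other way, with 13, 8 and 5 counts in sham and 64, 42 and 22 in TAC. Thrb and Dio3, also under it, overlapped. Thra, the main thyroid hormone receptor of the heart, was at 26.4, 29.9 and 23.2 FPKM in sham and at 12.7, 13.6 and 18.5 FPKM in TAC. It fell from 123.6 ± 13.3 to 76.8 ± 9.89 CPM (SD, n = 3 each; log2 fold change -0.69 ± 0.15, adjusted p = 0.0367 in edgeR), a call lost in 9 of 15 alternatives. Without sham replicates 1, 2 and 3 the adjusted p was 0.0829, 0.155 and 0.0826, and without TAC replicates 1 and 2 it was 0.138 and 0.0884. With trends over GC content and length removed the log2 fold change of Thra was -0.45 (adjusted p = 0.125 in edgeR). Of its exonic bases in GENCODE M21, 5.70% overlap Nr1d1 on the other strand.

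**Figure D5:**
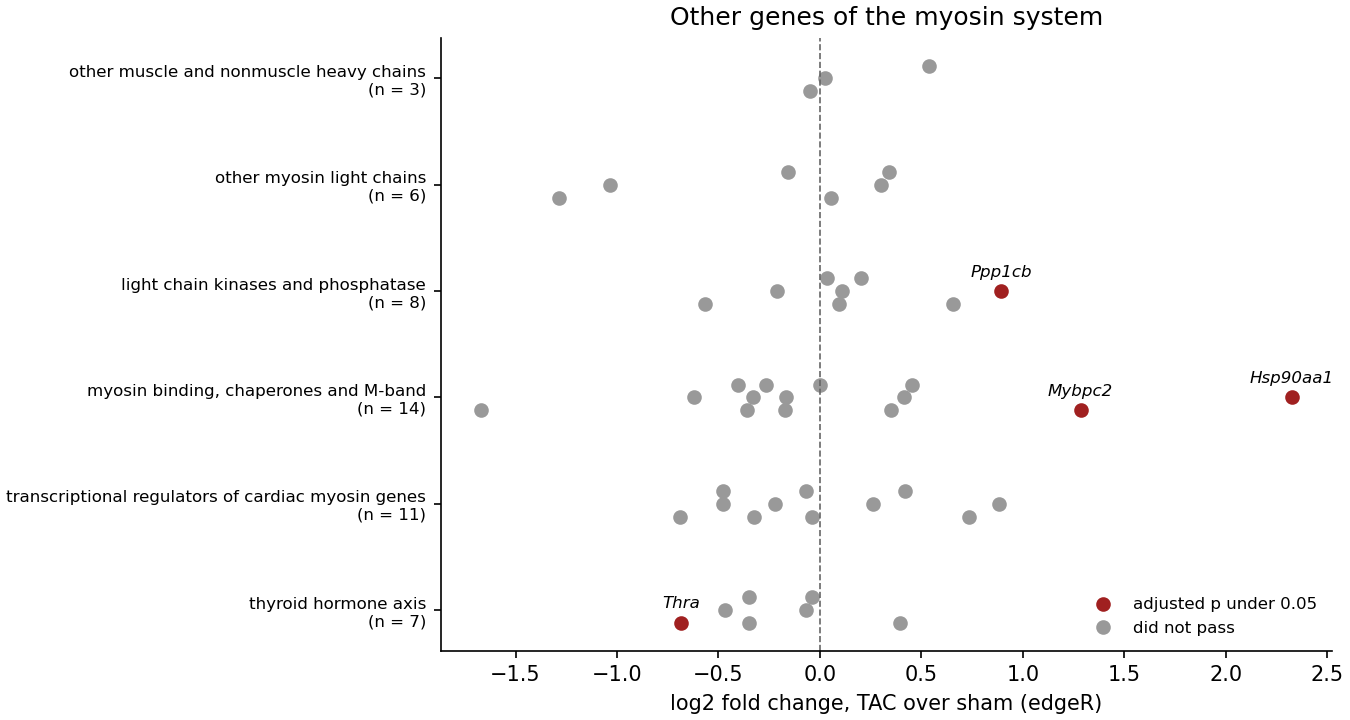
Log2 fold change, TAC over sham, of the 49 tested other myosin genes in their 6 lists, with called genes labelled. Hsp90aa1, Mybpc2 and Ppp1cb, in red, lie above 0 and Thra below, and the 45 grey genes, which did not pass, lie on both sides of 0.

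By Pearson's r of log2 CPM over the 6 libraries, the genes whose pattern was most like that of Myh7 were Prdx3 (r = 0.995), Lamp1 (0.973), Dazap2 (0.971), Creg1 (0.968) and Sema3b (0.963). Those most like Myh6 were Capzb (0.988), Vwf (0.982), Lhpp (0.982), Ehd1 (0.981) and Ankrd9 (0.980). These are the highest of 4210 genes compared over 6 points that share libraries, and they are given as a description only.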

How the data were processed

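Poly(A) RNA of the left ventricle was sequenced in 6 dUTP-marked libraries, per the labels' protocols. Per the submitters' processing notes, cutadapt 1.9, HISAT2 2.0.4, StringTie 1.3.4d and GRCm38 were used. The sources used here do not give the annotation release or the counting strand. The authors deposited FPKM and estimated counts, already whole numbers, per the file headers. Genes whose mean FPKM reached 1 were compared with edgeR 4.0.16 (R 4.3.3; TMM, quasi-likelihood test, Benjamini-Hochberg over 8795 genes, threshold 0.05). The standard error is the log2 fold change divided by the root of F, an approximation. Ratios were compared by exact permutation tests. On simulated counts for this comparison, the test recovered 63% of 100 genes with a 2-fold change and 98% of 100 with a 4-fold change, and 7 of 168 calls were unchanged genes. The simulated counts varied gene by gene and held no library that stood apart, as TAC replicate 3 did. These rates may therefore not hold for the real libraries. The alternatives were DESeq2 1.42.0, limma 3.58.1 on log2(FPKM + 1) and log2(FPKM + 0.1), other scalings and filters, trend removal over GC content and length (GENCODE M21), a replicate block and leaving out each library. The members and lists were chosen with earlier results of these data known. Named beyond the members are called genes of each list (at most 6), the 2 most abundant by mean FPKM of a list with no call, and the 5 most like Myh6 or Myh7 among genes at a mean of 5 FPKM or more.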

Additional observations from a re-analysis of the deposited data

How the results depend on the processing

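The count of called genes, 615, was 1648 with DESeq2, 345 with total counts, 285 without a filter, 211 at a mean FPKM of 5 or more, 183 with the replicate block, and 12 (without sham replicate 2) to 1705 (without TAC replicate 3) with a library left out. The share of calls that were higher, 67.3%, was 77.2% with upper-quartile scaling, 45.5% with total counts, 57.2% without a filter, 34.0% and 33.6% with limma at pseudocounts of 1 and 0.1, and 52.6% with GC and length trends removed. The median log2 fold change of all genes was -0.14 with total counts and -0.13 and -0.16 with limma. Of the members, 1 was called, Myl1, with total counts, without a filter, in both limma fits and with the replicate block, and 0 to 2 with a library left out. Of the other listed genes, 4 were called, and 9 with DESeq2, 1 with total counts, at a mean FPKM of 5 or more and with the replicate block, 2 in both limma fits, and 0 to 17 with a library left out. Deviations from the group means correlated at r = -0.10, 0.14 and -0.06 between same-numbered libraries, and at -0.23 to 0.25 between the others. Such values, tied together by the group means, cannot exclude pairs. The numbers are not read as pairs because the labels do not say that they pair animals. The difference in Myh7 share without 1 library ran from 0.638 to 11.8 percentage points. Signs turned for members and listed genes that did not pass: Myh7 without 1 library (-0.088, without TAC replicate 3, to 1.78), Myh7b with total counts (-0.0391), no filter (-0.0155), limma (-0.0310 and -0.0331) and without 1 library (-0.11 to 0.24), Myl2 (-0.28 to 0.0742) and Myl9 (-0.30 to 0.0653) without 1 library, highest without TAC replicate 3, Mylk3 with upper-quartile scaling (0.0084), the filter at 5 (0.0494) and without 1 library (-0.46 to 0.22), Myh14 with upper-quartile scaling (0.0039), the filter at 5 (0.0423), trend removal (0.15) and without 1 library (-0.31 to 0.15), and Myh9 with total counts (-0.0941), no filter (-0.0736), limma (-0.0872 and -0.0933) and without 1 library (-0.11 to 0.28). The cause of these shifts was not tested. With 3 libraries a group no exact test on a ratio can go below 0.1.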
